A study of Homo sapiens with 21 samples.

Results

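The matrix metalloproteases (MMPs), the ADAMs, the ADAMTS proteases and their tissue inhibitors (TIMPs) were followed through the accessible sites that lie nearest to their genes. A site belonged to the set if the deposited annotation gave it a nearest gene named MMP with a number and an optional letter, TIMP with a digit, or ADAM or ADAMTS with a number. This took 1321 of 367900 sites, and 69 of the 26788 genes that the annotation names. The MMPs had 375 sites at 24 genes, the TIMPs 26 sites at 4 genes, the ADAMs 379 sites at 22 genes and the ADAMTS proteases 541 sites at 19 genes. Of the 1321 sites, 1293 passed the filter on low counts, and the 28 others, at 17 genes, were not tested.

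Cells of the human neuroblastoma line SK-N-BE(2) were profiled by ATAC-seq, which uses a transposase to cut and tag open DNA. All cells were transduced with lentiviral short hairpin RNAs (shRNAs) and collected 72 h later, including the Control cells, whose columns carry the name of a non-silencing control. ARID1A and ARID1B, mutually exclusive subunits of the BAF chromatin remodelling complex, were each silenced by a pair of hairpins (shARID1A.2 and shARID1A.4, shARID1B.2 and shARID1B.3). They were silenced together in the combinations shARID1A/B.2.3 and shARID1A/B.4.2, whose numbers match shARID1A.2 with shARID1B.3 and shARID1A.4 with shARID1B.2. Each of the 7 groups had 3 libraries, 21 in all, from bulk cultures of a single line. An shRNA acts on the transcript, so the accessibility data hold no check of the knockdown.

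MMPs cleave collagens and other matrix proteins, and some of them sit in the cell membrane. ADAMs mostly shed the outer parts of membrane proteins, and several have lost the catalytic site. ADAMTS proteases are secreted and act on procollagens and proteoglycans, while TIMPs block many of these enzymes to different degrees. The distal sites of such genes can act as enhancers, and BAF is known to keep enhancers open. Each site carries the name of the closest gene, and whether it acts on that gene is not known from these data. In bulk cultures, fewer cells with an open site and less opening per cell cannot be told apart.

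Libraries held 16140029 to 44472230 reads in sites, and 0.321% to 0.358% of these lay in the sites of the protease set. Promoter sites took 20.0% to 20.6% of these reads in Control and 23.4% to 25.1% in the combinations. Accessibility is given as CPM (read counts scaled to a common library total), and changes as log2 of silenced over Control with the standard error (SE). A site was called when its false discovery rate (FDR) was under 0.01 in the edgeR quasi-likelihood test over all 357029 tested sites. Among 7 adrenergic neuroblastoma markers, 6 had a site within 1000 bases of the transcription start site (TSS), from 2.43 CPM at TH to 43.9 CPM at HAND2 in Control, while no such site was listed for ISL1. Of 8 markers of other cell types, EPCAM (6.62 CPM) and MYOD1 (12.7 CPM) had such a site and none was listed for the 6 others.

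The sequences below are the central 300 bases of 5 sites, taken from GRCh38 on the plus strand. Among the sites that met the naming rule (called after combined silencing, with at least 1 CPM in Control or the combinations and no overlap between their libraries), ADAMTS15, ADAMTS20 and TIMP4 showed the largest falls and ADAMTS3 the largest rise, and ADAMTS14 is a falling site with an AP-1 match. Capitals mark matches on either strand to the 7 motifs searched. For the AP-1 family the letters were TGACTCA. For the TEAD factors, which act with YAP, they were GGAATG. The GATA factors were searched as AGATAA. The E-box that HAND and TWIST proteins prefer was written as CAGATG, whereas a further E-box of neural bHLH factors was CAGCTG. For the MYC proteins the E-box was CACGTG, and for homeobox proteins the letters were TAATTG.
ADAMTS15 (chr11:130533671-130533970): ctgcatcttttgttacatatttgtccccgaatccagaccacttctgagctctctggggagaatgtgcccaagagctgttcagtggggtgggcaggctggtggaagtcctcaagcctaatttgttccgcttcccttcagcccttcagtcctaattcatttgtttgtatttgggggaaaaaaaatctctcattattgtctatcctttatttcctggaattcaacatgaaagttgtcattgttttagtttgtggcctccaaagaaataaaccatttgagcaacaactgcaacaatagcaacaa
ADAMTS20 (chr12:43216447-43216746): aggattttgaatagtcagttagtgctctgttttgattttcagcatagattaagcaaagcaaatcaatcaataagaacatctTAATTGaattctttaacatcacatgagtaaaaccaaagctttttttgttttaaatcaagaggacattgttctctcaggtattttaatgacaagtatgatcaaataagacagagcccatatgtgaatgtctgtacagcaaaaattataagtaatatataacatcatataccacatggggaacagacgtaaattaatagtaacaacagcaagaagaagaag
TIMP4 (chr3:12180383-12180682): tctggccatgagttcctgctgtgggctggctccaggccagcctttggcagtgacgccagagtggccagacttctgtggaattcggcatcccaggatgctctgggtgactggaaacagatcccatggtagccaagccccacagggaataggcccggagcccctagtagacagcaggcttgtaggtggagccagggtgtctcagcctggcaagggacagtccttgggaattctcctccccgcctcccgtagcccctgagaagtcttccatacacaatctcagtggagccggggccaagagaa
ADAMTS14 (chr10:70679488-70679787): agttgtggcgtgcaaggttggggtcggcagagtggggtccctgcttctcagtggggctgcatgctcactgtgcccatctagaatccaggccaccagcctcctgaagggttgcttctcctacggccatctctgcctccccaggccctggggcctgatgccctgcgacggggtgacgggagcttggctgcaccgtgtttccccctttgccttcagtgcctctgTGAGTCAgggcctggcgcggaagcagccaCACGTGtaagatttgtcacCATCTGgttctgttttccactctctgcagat
ADAMTS3 (chr4:72337810-72338109): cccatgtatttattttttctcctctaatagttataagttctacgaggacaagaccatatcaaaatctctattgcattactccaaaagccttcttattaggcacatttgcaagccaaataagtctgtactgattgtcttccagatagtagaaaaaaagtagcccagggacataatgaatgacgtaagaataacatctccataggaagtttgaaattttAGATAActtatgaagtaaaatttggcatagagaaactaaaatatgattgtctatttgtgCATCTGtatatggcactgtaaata
The ADAMTS15 and TIMP4 windows held none of these motifs, and the ADAMTS20 window held 1 homeobox match. The ADAMTS3 window held a GATA match and a HAND or TWIST E-box. The ADAMTS14 window held an AP-1 match, a MYC E-box and a HAND or TWIST E-box within its last 100 bases. No other fall that met the naming rule had an AP-1 match in its window. The ADAMTS19 site, which fell more than that of ADAMTS14, held none of the 7 motifs and is not shown. Over all member sites of at least 300 bases, AP-1 was matched in 13 of the 131 sites that fell after combined silencing (9.92%) and in 57 of the 971 that were not called (5.87%). Over all tested sites of that length, 6.31% of the 308318 windows held it, and 8.42% of those that fell. The HAND or TWIST E-box was matched in 28.2% of the falling member sites and 23.4% of those not called, beside 32.4% of all falling sites and 22.7% of all tested sites. These shares are descriptions of letters in windows, and the small number of falling sites limits them.

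The main comparison asked which of these sites lose or gain accessibility when both subunits are silenced, as the mean of the combinations against Control. Of the 1293 tested member sites, 137 were lower (10.6%) and 30 were higher (2.32%). With the libraries scaled on promoter sites, which lowered the median of all tested sites by 0.23 on the log2 scale, 223 were lower and 5 higher. Without the first Control library 19 were higher. With a log2 change of at least 1 also required, 57 were lower and 5 higher, beside 4.46% and 0.252% of all tested sites. Over all tested sites the shares with the main scaling were 10.3% lower and 3.43% higher. The shares in the set, 10.6% and 2.32%, were near these. They are no background for the counts with promoter scaling, which moved all tested sites. The shares of all tested sites with that scaling are not given here, so those counts are not read as particular to the set. The median log2 change was -0.01 in the set and 0.03 over all tested sites. Within the set, the families differed in these shares. The inhibitors had the largest share of falling sites, with 9 of 26 TIMP sites lower and 2 higher. Most of the TIMP sites, and most of those that fell, were at TIMP3. The ADAMTS proteases followed with 76 of 526 lower (14.5%) and 11 higher, then the ADAMs with 28 of 369 lower (7.59%) and 9 higher, and the MMPs with 24 of 372 lower (6.45%) and 8 higher. These shares are counts over sites, which are not independent of each other, and the differences between families were not tested. They were also not matched for the level of the sites in Control, and few faint sites were called.

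**Figure D1:**
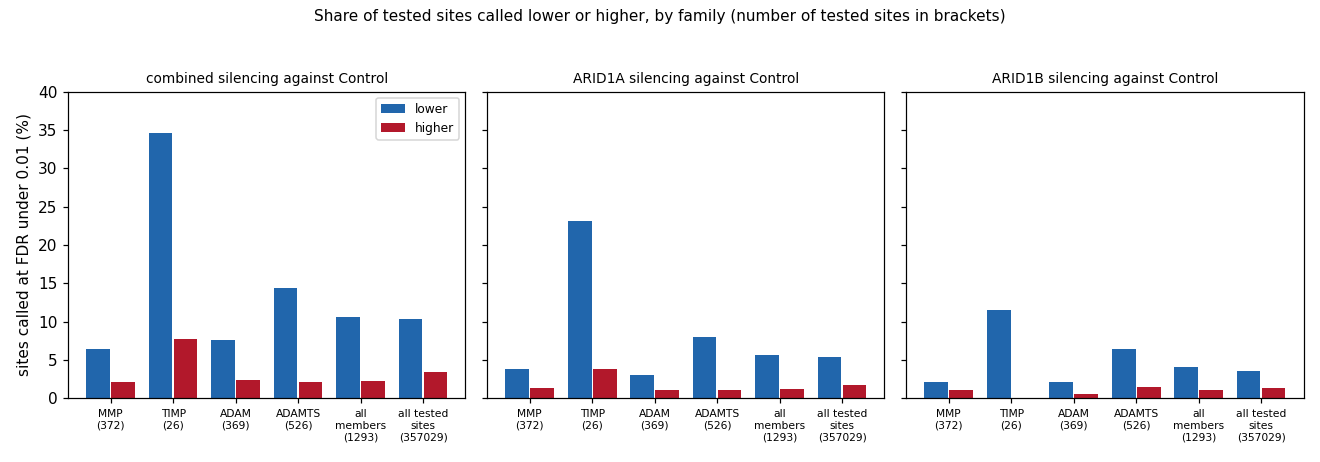
Percentage of tested sites called lower (blue) or higher (red) at an FDR under 0.01, for each family, for all members and for all tested sites, with the number of tested sites in brackets; the panels show combined, ARID1A and ARID1B silencing against Control. After combined silencing, 34.6% of TIMP sites, most of them at TIMP3, and 14.5% of ADAMTS sites were lower, against 10.3% of all tested sites.

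Most tested member sites lay away from promoters, and so did the falling ones. Of the 137 lower sites, 72 were intronic and 60 intergenic. Among the 29 tested promoter sites, 1 was lower and 5 were higher. The lower share was 3.45%, near the 4.24% of all tested promoter sites. Intronic member sites were lower in 10.4% of 693 cases and intergenic ones in 11.8% of 509, beside 12% and 9.39% of all tested sites of those classes. Promoter sites were higher in 17.2% of cases, beside 33.4% of all tested promoter sites. Sites with at least 1 CPM in Control gave 129 of the 137 falls, a share of 17.5% of such member sites beside 18.4% of all tested sites at that level. Under 1 CPM the lower shares were 1.44% of member sites and 1.67% of all tested sites. The 143 sites at the 9 MMP genes clustered on chromosome 11 (MMP1, MMP3, MMP7, MMP8, MMP10, MMP12, MMP13, MMP20 and MMP27, from position 102512387 to 103024022) gave 3 falls (2.10%), all at MMP7, and no rise, beside 10.3% and 3.43% of all tested sites. Taken singly, shARID1A/B.2.3 lowered 4 of these sites and raised 4, and shARID1A/B.4.2 lowered none and raised 1. The shares of this cluster were not matched to other sites for the level in Control.

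Among the MMPs, the largest falls that met the naming rule were at MMP28 (epilysin), MMP19, MMP14, MMP16 and MMP15. The MMP28 site (chr17:35801386-35802114, intergenic, 6.11 kb before the TSS) measured 15.7, 14.2 and 15.6 CPM in Control. It fell to 5.38, 4.69 and 5.71 CPM under shARID1A/B.2.3, and to 4.39, 4.42 and 4.50 CPM under shARID1A/B.4.2. The 4 single-hairpin groups lay between these levels, at 6.58 to 11.1 CPM per library, and no silenced library overlapped Control. Combined silencing thus gave -1.66 on the log2 scale (SE 0.10, FDR 7.19e-27), a 3.15-fold fall.

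The MMP19 site (chr12:55847068-55849016, intergenic, 5.07 kb before the TSS) fell from 14.3, 13.4 and 17.8 CPM in Control to 4.01, 3.39 and 4.44 CPM under shARID1A/B.2.3, and to 6.68, 6.21 and 6.12 CPM under shARID1A/B.4.2. It was lower in every silenced group, and its change of -1.61 (SE 0.10, FDR 2.20e-25) was larger with shARID1A/B.2.3 than with shARID1A/B.4.2 (-0.71 between them, SE 0.13, FDR 5.25e-05). MMP14, the membrane-type protease that activates pro-MMP2, had its fall at the gene end (chr14:22846908-22849353, 11.6 kb past the TSS). That site measured 16.7, 15.8 and 15.3 CPM in Control, against 4.39 to 4.63 CPM under shARID1A/B.2.3, and 6.12 to 7.48 CPM under shARID1A/B.4.2. All 12 single-hairpin libraries lay between Control and shARID1A/B.2.3, from 6.38 to 11.4 CPM. The log2 change was -1.55 (SE 0.09, FDR 1.99e-26), whereas the MMP14 site at the TSS (chr14:22836156-22838226) gave 20.1 ± 0.724 CPM (SD, n = 3) in Control and -0.08 (SE 0.08, FDR 0.583).

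MMP15, another membrane-type MMP, fell within its first intron (chr16:58032238-58033650) from 8.71 ± 0.399 CPM to 3.56 ± 0.369 and 4.79 ± 0.313 CPM (SD, n = 3 each) with the combinations. The fall was also called with ARID1A silencing (-0.77, SE 0.11, FDR 1.56e-08), while ARID1B silencing gave -0.06 (SE 0.10, FDR 0.822), and the direct difference between the genes was -0.71 (SE 0.09, FDR 7.83e-10). MMP16 had the most sites of any gene in the set (159, of which 55 inside the gene). It had 11 lower and 2 higher, beside 10.3% and 3.43% of all tested sites. Its largest fall that met the naming rule lay 615 kb from the TSS (chr8:88941682-88942615), from 2.89 to 3.45 CPM in Control to 0.835 to 1.32 CPM in the 6 combination libraries (-1.49, SE 0.17, FDR 2.97e-12).

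Rises that met the rule were smaller among the MMPs. Of the 10 such rises over all families, those at MMP24, MMP23A and ADAMTS3 were also called with libraries scaled on promoter sites, and the 7 others were not. MMP24, a membrane-type MMP known from neurons, rose at a site in an intron of PROCR (chr20:35208132-35208842, 18.2 kb before the TSS), from 0.577, 0.575 and 1.20 CPM in Control to 1.25 to 2.24 CPM in the combination libraries (1.05, SE 0.22, FDR 1.27e-04). The lowest combination library stood just above the highest Control library. A site at the SLC35E2B promoter, nearest in the annotation to MMP23A, rose from 14.4 ± 1.32 to 18.5 ± 1.44 and 21.8 ± 1.30 CPM (0.48, SE 0.09, FDR 8e-06). A second MMP16 site (chr8:88554377-88554943) rose from 0.943 ± 0.0336 CPM to 1.71 ± 0.273 and 1.31 ± 0.302 CPM (0.68, SE 0.21, FDR 0.00972), near the limit of the call, which it missed in the DESeq2 test.

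**Figure D2:**
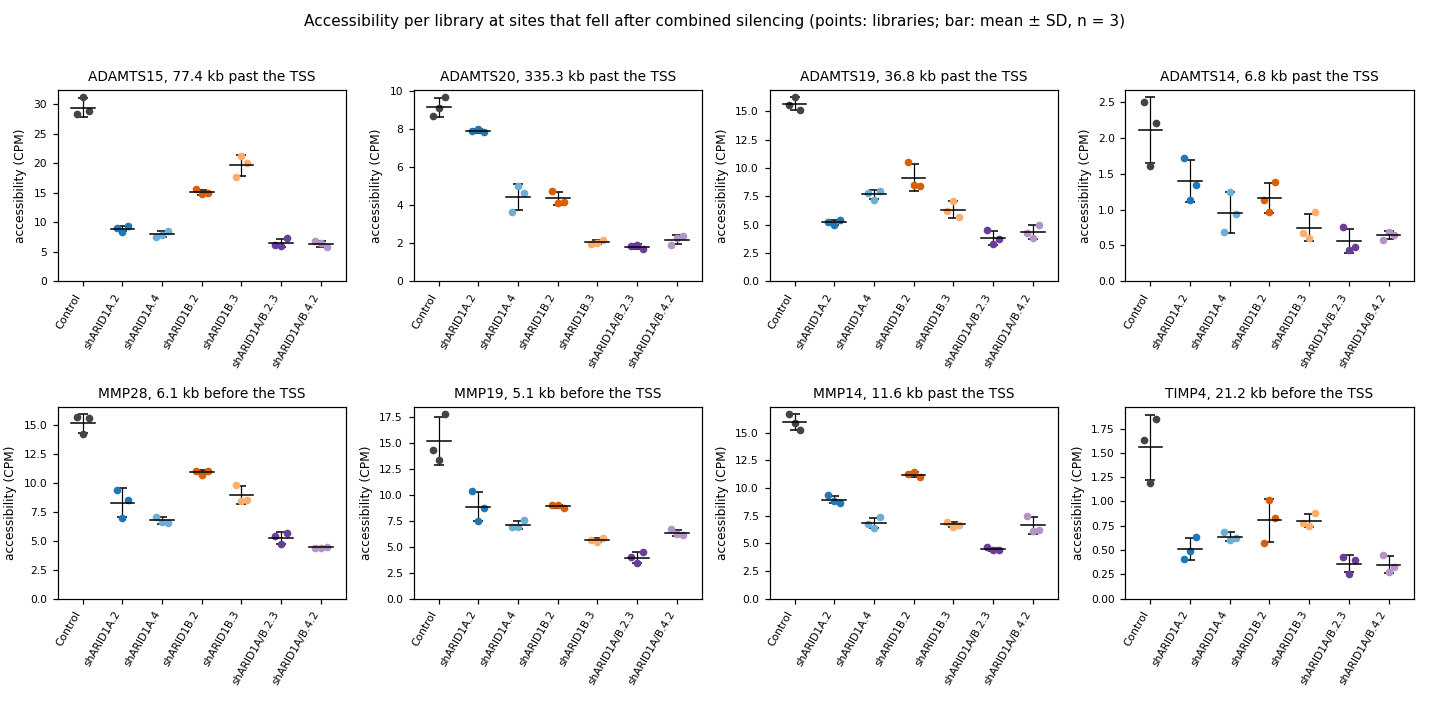
Accessibility in CPM of 8 falling sites in each of the 21 libraries; points are libraries, bars the mean and SD of 3 libraries in each group. The naming rule required the combination libraries to lie below all Control libraries, so they do in every panel. ADAMTS15 falls from 29.5 to 6.47 and 6.32 CPM.

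All 4 TIMP genes were lower when their sites were summed (2 of 4 when libraries were scaled by total counts only). For TIMP1 the fall came from 1 combination, since the sum was 12.5 ± 0.558 CPM in Control, 12.3 ± 0.496 under shARID1A/B.4.2 and 9.15 ± 0.679 under shARID1A/B.2.3 (SD, n = 3 each). For TIMP2 it was 33.7 ± 3.71 CPM in Control, 27.1 ± 2.37 with shARID1A/B.2.3 and 29.8 ± 1.20 with shARID1A/B.4.2, whose libraries overlapped Control. Among the TIMPs, the named site with the largest fall was that nearest to TIMP4 (chr3:12180309-12180756). It lies in an intron of SYN2, the gene that hosts TIMP4, 21.2 kb from the TSS. It measured 1.64, 1.19 and 1.84 CPM in Control. The shARID1A/B.2.3 libraries gave 0.427, 0.256 and 0.396 CPM, the shARID1A/B.4.2 libraries 0.448, 0.276 and 0.325 CPM. Every silenced library lay below every Control library, and the change of -2.15 (SE 0.24, FDR 4.99e-12) was a 4.43-fold fall.

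TIMP3 is the inhibitor that binds to the matrix and blocks ADAM17. It had 18 sites, of which 7 were lower and 1 was higher, beside 10.3% and 3.43% of all tested sites. A site in its last exon (chr22:32858979-32860160) measured 2.94, 2.79 and 2.81 CPM in Control, against 0.689, 0.883 and 0.923 CPM under shARID1A/B.2.3, and 1.75, 1.20 and 0.881 CPM under shARID1A/B.4.2 (-1.46, SE 0.18, FDR 8.30e-11). With shARID1B.2 it stayed at 2.74 ± 0.182 CPM (-0.06, SE 0.19, FDR 0.920), while with shARID1B.3 it was 1.28 ± 0.199 CPM (-1.18, SE 0.19, FDR 1.83e-06). TIMP2 went the other way at its first exon (chr17:78924122-78926318), from 8.23, 7.40 and 9.42 CPM in Control to 9.54 to 12.3 CPM in the combinations (0.38, SE 0.11, FDR 0.00628). The TIMP1 site at the TSS was not called, at 10.6 ± 0.621 CPM in Control, 7.93 ± 0.797 with shARID1A/B.2.3 and 11.6 ± 0.422 with shARID1A/B.4.2 (-0.16, SE 0.10, FDR 0.285). The combinations lay on either side of Control there.

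Among the ADAMs, the falls that met the naming rule were at ADAM18, ADAM30 and ADAM29, which are known from the testis, and at ADAM12 and ADAM22. The ADAM18 site (chr8:39672183-39673846, intron 14) measured 6.64, 7.27 and 6.41 CPM in Control and 2.13 to 3.07 CPM in the 6 combination libraries (-1.45, SE 0.12, FDR 3.56e-18). With the ARID1B hairpins it was 5.50 to 6.83 CPM, which overlapped Control, and with the ARID1A hairpins 3.98 to 5.45 CPM, which did not. An intergenic site 23.0 kb from the TSS of ADAM30 (chr1:119872652-119874481) fell from 9.78 ± 0.693 CPM to 3.49 ± 0.0201 and 5.04 ± 0.383 CPM (-1.22, SE 0.10, FDR 5.84e-18), and shARID1B.2 left it at 9.81 ± 0.882 CPM.

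ADAM12 is a sheddase that also binds integrins. Of its 28 tested sites 10 were lower and none higher, beside 10.3% and 3.43% of all tested sites. The named site, in its first intron (chr10:126372115-126373485), fell from 2.36, 2.01 and 2.04 CPM to 0.697 to 1.27 CPM in the combinations (-1.10, SE 0.18, FDR 1.16e-06). ADAM22, a receptor for LGI1 without protease activity, fell at an intronic site 103 kb past the TSS (chr7:88037035-88038118), from 2.78 ± 0.588 to 1.13 ± 0.267 and 1.63 ± 0.299 CPM (-1.01, SE 0.17, FDR 5.98e-07). Its promoter, among the most open sites of the set, rose from 53.6, 53.5 and 50.3 CPM to 58.0 to 71.7 CPM (0.33, SE 0.07, FDR 1.55e-04). The ADAM29 site (chr4:175184741-175185364) held 0.722 to 1.27 CPM in Control and 0.264 to 0.717 CPM in the combinations (-1.13, SE 0.27, FDR 5.55e-04), so the groups nearly met. ADAM33 (0.69, SE 0.15, FDR 2.90e-04, at a site in an exon of SIGLEC1) and ADAM32 (0.88, SE 0.25, FDR 0.00550) had the other named rises.

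The ADAMTS proteases held the largest of the named falls. At ADAMTS15, an aggrecan- and versican-degrading enzyme, an intergenic site 77.4 kb past the TSS (chr11:130532895-130534745) measured 28.3, 31.2 and 28.8 CPM in Control. It measured 6.11, 5.99 and 7.30 CPM under shARID1A/B.2.3, and 6.77, 6.44 and 5.75 CPM under shARID1A/B.4.2. The ARID1A hairpins alone gave 7.60 to 9.34 CPM and the ARID1B hairpins 14.7 to 21.2 CPM, so that the 3 kinds of silencing formed separate steps below Control. The combined change was -2.21 (SE 0.09, FDR 3.93e-38), a 4.63-fold fall. The combinations did not differ in a detectable way, at 0.02 (SE 0.12, FDR 0.949).

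ADAMTS20, a relative of ADAMTS9 with versican among its substrates, fell at an intergenic site 335 kb past the TSS (chr12:43216123-43217069). The libraries measured 8.66, 9.12 and 9.66 CPM in Control, 1.87, 1.91 and 1.67 CPM under shARID1A/B.2.3, and 1.93, 2.25 and 2.37 CPM under shARID1A/B.4.2 (-2.19, SE 0.11, FDR 8.39e-30). Here shARID1B.3 alone reached 1.98 to 2.18 CPM, within the range of the combinations, while shARID1A.2 stayed at 7.82 to 8.0 CPM (-0.21, SE 0.12, FDR 0.309). ADAMTS19 fell in its second intron (chr5:129496235-129498168), from 15.6, 16.3 and 15.2 CPM to 3.25 to 5.01 CPM in the combinations (-1.94, SE 0.10, FDR 5.05e-30), and each of the 4 single hairpins lowered it as well, to between 4.95 and 10.6 CPM per library.

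ADAMTS14, a procollagen N-propeptidase like ADAMTS2 and ADAMTS3, fell at an intronic site 6.83 kb past the TSS (chr10:70679381-70679894), from 2.50, 1.60 and 2.20 CPM to 0.441 to 0.755 CPM (-1.80, SE 0.21, FDR 1.39e-11). ADAMTS2 had the most lower sites of any gene, 14 of 38 tested with none higher. ADAMTS9 had the largest share among genes with over 10 tested sites, 8 of 14 with 1 higher. Over all tested sites 10.3% were lower and 3.43% higher. Both genes were picked for these counts after their values were seen. The named ADAMTS9 site lies in an intron of the antisense gene ADAMTS9-AS2 (chr3:64884717-64885309) and fell from 1.16 ± 0.263 to 0.404 ± 0.0929 and 0.365 ± 0.0755 CPM (-1.61, SE 0.26, FDR 6.62e-07). ATAC-seq does not carry strand, so sense and antisense genes cannot be told apart there. Of the rises, an ADAMTS4 intronic site was higher by 0.40 (SE 0.12, FDR 0.00658), an ADAMTS20 intronic site by 0.84 (SE 0.25, FDR 0.00773) and an ADAMTS3 intronic site by 1.28 (SE 0.21, FDR 3.94e-07). The ADAMTS3 rise came from 1 combination, as described below.

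Counts summed over all sites of a gene, scaled and tested over all genes, gave a change for each of the 69 genes. After combined silencing 21 of the 69 genes were lower and 7 higher, beside 20.9% lower and 15.9% higher over all 26743 genes tested. The lower share was thus above that of all genes, and the higher share below it. The genes were not matched for their number of sites, and these differences were not tested. Scaled on promoter sites, which moved the median log2 change of all genes tested by -0.17, 35 of the 69 were lower and 2 higher. The shares of all genes with that scaling are not given here. With the main scaling, the lower genes included all 4 TIMPs, and 10 of 19 ADAMTS genes with none higher. The rest were 4 of 24 MMPs and 3 of 22 ADAMs. MMP19 fell most (-1.44, SE 0.08, FDR 1.38e-12), from 17.8 ± 2.33 to 5.58 ± 0.523 and 7.89 ± 0.111 CPM (SD, n = 3 each), followed by TIMP4 (-0.90, SE 0.15), MMP28 (-0.83, SE 0.06), ADAMTS14 (-0.69, SE 0.07) and TIMP3 (-0.63, SE 0.04). The higher genes were MMP24 (0.73, SE 0.11), MMP23A (0.42, SE 0.06), MMP11 (0.40, SE 0.11), MMP9, ADAM10, ADAM17 and ADAM33. The MMP9 sum rose with 1 combination, at 18.4 ± 2.21 CPM for shARID1A/B.2.3 and 11.9 ± 0.383 for shARID1A/B.4.2, against 11.9 ± 0.807 CPM in Control. Of the 69 genes, ARID1A silencing lowered 16 and raised 4, beside 14.4% and 7.28% of all genes. ARID1B silencing lowered 13 and raised 3, beside 9.95% and 5.44%. With scaling by total counts only, 9 genes were lower after ARID1A and 6 after ARID1B silencing. A sum over sites is led by the largest sites, so it can hide changes of small ones.

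**Figure D3:**
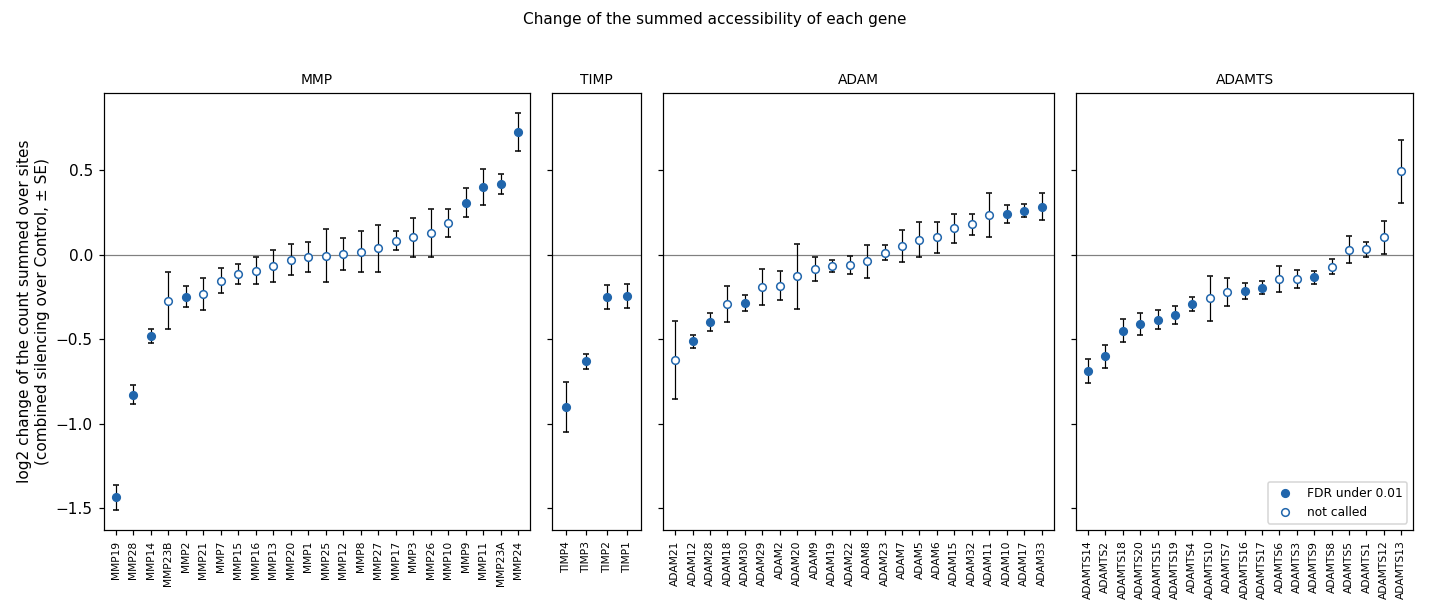
log2 change (± SE) of the count summed over the sites of each of the 69 genes, combined silencing over Control, ordered within each family; filled points passed an FDR under 0.01. MMP19 stands lowest at -1.44 and MMP24 highest at 0.73, and no ADAMTS gene is called higher.

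The genes of the set were next compared at their start sites. Of 26 genes listed for this, 21 had a site within 1000 bases of the TSS, and MMP9, MMP17, TIMP4, ADAM9 and ADAMTS9 had none. After combined silencing 7 of the 21 sites were higher and none was lower. These sites were taken by distance, and some are annotated as exons, so their share has no like background here. By annotated class, 17.2% of the 29 member promoter sites were higher, beside 33.4% of all tested promoter sites. The direction at the 21 start sites depends on the scaling. With libraries scaled on promoter sites, 4 of them were lower (MMP2, MMP14, TIMP1 and ADAMTS10) and 1 was higher (MMP24). ADAM17 encodes the main sheddase of TNF, and its start site measured 51.4, 45.7 and 48.0 CPM in Control and 53.6 to 67.4 CPM in the combinations (0.33, SE 0.07, FDR 2.09e-04). ADAM10, the alpha-secretase that also cleaves Notch, moved alike from 30.3 ± 2.21 to 35.2 ± 1.40 and 40.9 ± 0.282 CPM (0.32, SE 0.08, FDR 8.05e-04). MMP24 (0.71, SE 0.13), MMP11 (0.49, SE 0.12), MMP15 (0.32, SE 0.09), TIMP2 and ADAM22 were the others called. MMP2, the gelatinase activated by MMP14, gave -0.19 (SE 0.09, FDR 0.149). Per kilobase of site, the most open start sites in Control were ADAM17 (29.9 CPM per kb), MMP16 (28.5), ADAM22 (27.7) and ADAMTS3 (25), and the least open was MMP24 (1.91).

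**Figure D4:**
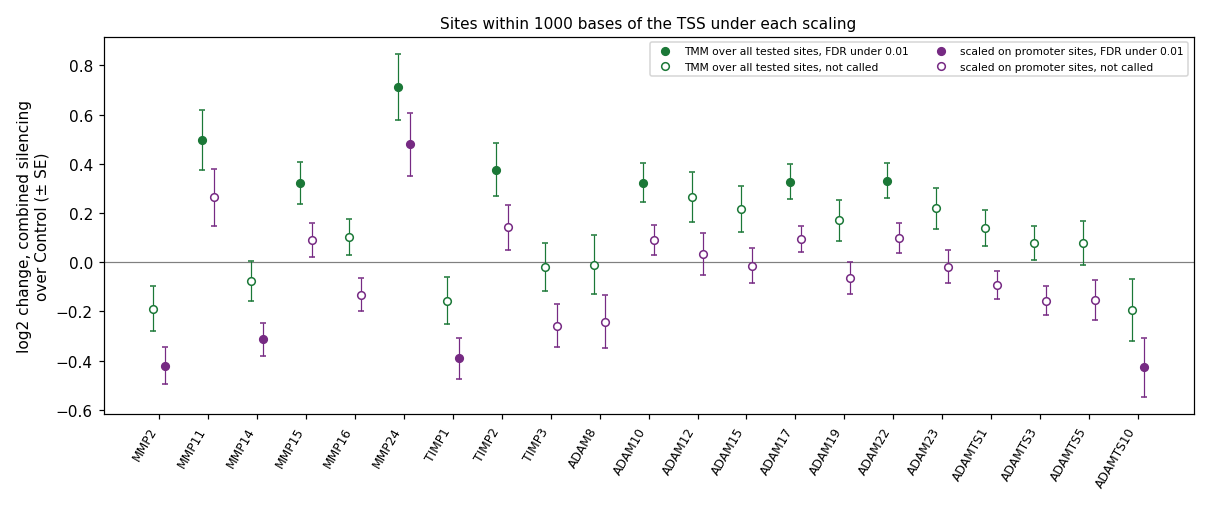
log2 change (± SE) after combined silencing at 21 sites within 1000 bases of a TSS, with TMM scaling over all tested sites (green) and with scaling on promoter sites (purple); filled points passed an FDR under 0.01. With TMM 7 sites are higher and none lower, and scaling on promoters moves every site down. By annotated class, 17.2% of member promoter sites and 33.4% of all tested promoter sites are higher with TMM.

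The next comparisons asked what silencing of ARID1A or ARID1B alone changed. ARID1A silencing lowered 73 member sites (5.65%) and raised 16 (1.24%), beside 5.37% lower and 1.67% higher of all tested sites. ARID1B silencing lowered 53 (4.10%) and raised 14 (1.08%), beside 3.53% and 1.39%. Scaled on promoter sites, the counts were 132 lower and 1 higher for ARID1A silencing, and 93 lower and 7 higher for ARID1B silencing. That scaling moved the median log2 change of all tested sites by -0.19 and -0.14. All shares of all tested sites given here are those of the main scaling. Those with promoter scaling are not given, so the counts with it have no background here. In both, the ADAMTS family, with 526 of the 1293 tested member sites, held most of the falls. These were 42 sites (8.0% of its tested sites) with ARID1A silencing and 34 (6.5%) with ARID1B silencing. By hairpin against Control, shARID1A.2 lowered 62 and raised 5 (4.54% and 0.834% of all sites), and shARID1A.4 lowered 50 and raised 29 (4.17% and 2.28%). With shARID1B.2 the counts were 20 and 10 (1.84% and 1.34%), the fewest lower sites of any group, and with shARID1B.3 they were 88 and 28 (4.88% and 3.12%). The combination shARID1A/B.2.3 lowered 153 and raised 28 (10.4% and 2.85%), and shARID1A/B.4.2 lowered 96 and raised 33 (7.37% and 3.97%). Scaling on promoter sites raised the lower counts of the single hairpins to 100, 115, 31 and 145 in the same order, and that of shARID1A/B.4.2 to 209. All of these comparisons share the Control libraries.

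A direct comparison of ARID1A with ARID1B silencing called 42 member sites lower and 14 higher with ARID1A (3.69% and 1.05% of all sites). It set the mean of the ARID1A hairpins against that of the ARID1B hairpins. The spread between hairpins of a gene did not enter its error. ADAMTS20 held sites of both kinds. At one, 372 kb past the TSS (chr12:43179988-43180616), the 6 ARID1A libraries gave 0.641 to 1.20 CPM and the 6 ARID1B libraries 1.75 to 2.26 CPM, with 1.36 to 1.93 CPM in Control, a difference of -1.26 (SE 0.16, FDR 3.21e-09). At the site 335 kb past the TSS described above, the ARID1B libraries were lower on average, with a difference of 0.98 (SE 0.10, FDR 4.53e-13). That difference lay between shARID1A.2 and shARID1B.3, since shARID1A.4 (4.43 ± 0.688 CPM) and shARID1B.2 (4.35 ± 0.339 CPM) overlapped. These 2 ADAMTS20 sites lie on the same side of the gene.

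TIMP3 had a site in an intron of SYN3 (chr22:32651728-32652230) that stood at 0.458 to 0.971 CPM in the ARID1A libraries and 1.15 to 1.89 CPM in the ARID1B libraries (-1.08, SE 0.20, FDR 2.08e-05). The large ADAMTS15 site was lower with ARID1A than with ARID1B silencing (-1.03, SE 0.08, FDR 8.31e-20). In the other direction, an ADAMTS9 site (chr3:64856797-64857870) held 1.0 to 2.58 CPM in the ARID1B libraries and 1.90 to 3.63 CPM in the ARID1A libraries (0.77, SE 0.13, FDR 3.51e-06). An intergenic ADAM12 site (chr10:126400749-126401000) gave 0.75 (SE 0.17, FDR 9.22e-04). The libraries of the silenced genes overlapped at both.

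The combinations were lower than the mean of the 4 single-hairpin groups at 97 member sites and higher at 8 (6.85% and 0.969% of all sites). The largest such falls among the named sites were at the ADAMTS20 site 335 kb past the TSS (-1.07, SE 0.10, FDR 2.10e-15) and the ADAM18 site of intron 14 (-1.07, SE 0.09, FDR 4.43e-16). At ADAM18 the 6 combination libraries (2.13 to 3.07 CPM) lay below all 12 single-hairpin libraries (3.98 to 6.83 CPM). At ADAMTS20 they overlapped shARID1B.3. An ADAMTS9 site (chr3:64748562-64749017) gave -0.94 (SE 0.22, FDR 7.69e-04). The named rises were a site 178 bases past the ADAM18 TSS (0.68, SE 0.14, FDR 1.77e-04), a site in the second intron of MMP8 (0.57, SE 0.13, FDR 5.76e-04), and a second intronic ADAM18 site (0.48, SE 0.12, FDR 0.00262). All 3 had under 3 CPM in every library.

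The combinations differed from each other at 59 member sites lower and 14 higher with shARID1A/B.2.3 (3.79% and 1.43% of all sites). This imbalance depended on the scaling, with 35 lower and 35 higher when libraries were scaled on promoter sites, and 27 higher with total counts only. The largest difference among the named sites was at an intergenic site 389 kb from the MMP16 TSS (chr8:88715594-88716507). It measured 17.3, 18.8 and 15 CPM in Control, 2.36, 3.37 and 2.15 CPM under shARID1A/B.2.3, and 14.8, 15.7 and 13.6 CPM under shARID1A/B.4.2, a difference of -2.44 (SE 0.13, FDR 1.04e-27). The ARID1B hairpins parted in the same way, with 3.8 to 4.33 CPM for shARID1B.3 and 17.7 to 21 CPM for shARID1B.2, while both ARID1A hairpins gave 9.21 to 13.5 CPM. So the libraries that carry the ARID1B hairpin numbered 3 were low, and those with the hairpin numbered 2 were at or near Control.

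The same order held at an ADAM17 site in intron 1, 3.12 kb past the TSS (chr2:9552539-9552793, 255 bases long), where one ARID1B hairpin was above Control and the other below. Control gave 1.59, 1.31 and 1.48 CPM, shARID1B.2 gave 4.69, 4.18 and 5.20 CPM, and shARID1B.3 gave 0.642, 0.955 and 0.714 CPM. The combinations followed, with 3.14, 3.36 and 3.48 CPM for shARID1A/B.4.2 and 0.821, 0.581 and 0.703 CPM for shARID1A/B.2.3. The ARID1A hairpins, at 1.38 to 2.20 CPM, overlapped Control. The difference between combinations was -2.26 (SE 0.20, FDR 1.60e-15), and their mean against Control, 0.06 (SE 0.19, FDR 0.891), hid it.

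ADAMTS3 had an intronic site of each kind. The rise named above (chr4:72337579-72338340) was 4.30, 3.27 and 4.03 CPM under shARID1A/B.4.2 and 0.952, 0.953 and 1.23 CPM under shARID1A/B.2.3, against 0.762 to 0.914 CPM in Control (-1.91 between combinations, SE 0.19, FDR 8.10e-14). Its parts shARID1A.4 and shARID1B.2 were raised as well, to 1.92 to 2.63 and 1.52 to 2.44 CPM. A site 249 kb past the TSS (chr4:72319484-72320771) did the reverse, with 5.94, 6.60 and 6.20 CPM for shARID1A/B.2.3, 2.48 to 2.82 CPM for shARID1A/B.4.2 and 2.65 to 3.29 CPM in Control (1.24, SE 0.15, FDR 1.35e-10). Other differences of this direction were named at MMP16 (1.30, SE 0.26, FDR 1.42e-04) and ADAM29 (1.13, SE 0.28, FDR 0.00311). Compared directly, a contrast chosen after these values were seen, shARID1B.3 was lower than shARID1B.2 at 60 member sites and higher at 26 (4.25% and 2.96% of all sites).

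**Figure D5:**
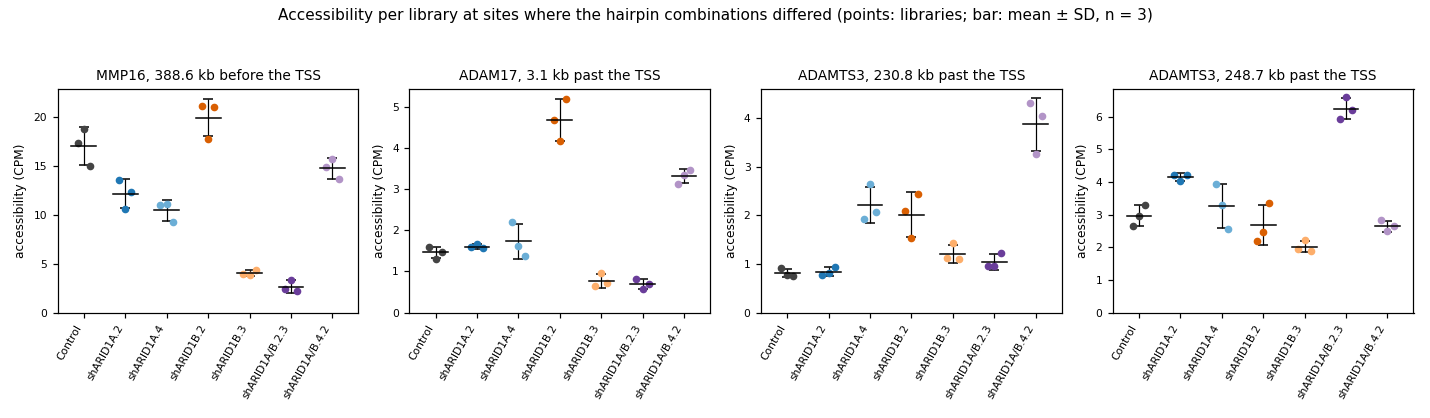
Accessibility in CPM per library at 4 sites where the combinations differed; points are libraries, bars the mean and SD of 3 libraries in each group. At MMP16 and ADAM17 the groups with the ARID1B hairpin numbered 3 are low (2.63 and 0.702 CPM under shARID1A/B.2.3) and those with the hairpin numbered 2 are high (14.7 and 3.32 CPM under shARID1A/B.4.2).

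Genes that act with these proteases were taken from 6 lists, with 664 tested sites at 35 genes in all. After combined silencing 65 of these sites were lower (9.79%) and 18 higher, near the 10.3% lower and 3.43% higher of all tested sites. By list the lower share ran from 4.17% to 16.1%. The ADAMTS-like genes (ADAMTSL1 to ADAMTSL5, THSD4 and PAPLN, which lack the protease part) had 19 of 118 lower and 6 higher. The partners of ADAM10 and ADAM17 (tetraspanins, iRhoms and FRMD8) had 18 of 129 lower and 5 higher. The astacin proteases had 12 of 212 lower, the lectican substrates 7 of 71, the inhibitors other than TIMPs 7 of 86 and the plasminogen system, which activates pro-MMPs, 2 of 48.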

How the data were processed

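ATAC-seq was measured in 21 libraries of SK-N-BE(2) cells, 3 for each of 7 groups, which the series calls biological triplicates. The deposited tables hold raw counts of reads per site, one set of sites for all libraries, and the authors annotated the sites to the nearest gene on GRCh38 with HOMER. DESeq2 is named in the submitters' processing notes. For the aligner, peak caller and read shift for the Tn5 cut, versions and settings were not given in the sources used here; a shift would move reads only at site edges. The tables also hold the authors' log2 ratios and adjusted p-values, which were not used, and 36 columns of normalized values that were left out. Control counts repeat unchanged from table to table and entered once.

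Counts were tested in R 4.3.3 with edgeR 4.0.16 (filterByExpr with a minimum count of 10, TMM scaling, quasi-likelihood test), all 21 libraries in 1 model, with Benjamini-Hochberg adjustment over all 357029 tested sites. Counts summed per gene were tested the same way. Where hairpins or combinations were averaged, the error came from the spread among libraries, so that between hairpins was not measured. The filter removed 10871 sites, and 192 sites without a gene name stayed in the site test. The common biological coefficient of variation was 0.0817. Depth of 16140029 to 44472230 reads per library limits sites under about 1 CPM. The scripts were tested on simulated data. Alternatives were DESeq2 1.42.0, other scalings, filters and thresholds, a replicate block and leaving out each library. The members and gene lists were chosen with earlier results of these data known.

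Sites named in the text were, for each family, the 5 largest falls and 3 largest rises called after combined silencing, 1 per gene and direction, with at least 1 CPM in Control or the combinations and no overlap of these libraries. To these were added the start sites of 26 listed genes, up to 3 sites in each direction in the other 3 direct comparisons, and the 5 largest falls and 3 largest rises of summed genes. Genes named for their number of sites or calls, and the full list of called genes, were chosen after their values were seen. One marker of the cell type list is not reported here.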

Additional observations from a re-analysis of the deposited data

Results flagged for a closer look

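The mean of the ARID1A hairpins differed from that of the ARID1B hairpins in a direct test at 6 named sites. The error of this test came from the spread among libraries, so the spread between hairpins of a gene was not measured. The log2 difference, ARID1A over ARID1B silencing, was -1.26 at ADAMTS20 (from position 43179988 of chromosome 12), -1.08 at TIMP3 (from 32651728 of chromosome 22) and -1.03 at ADAMTS15 (from 130532895 of chromosome 11). It was 0.98 at the other ADAMTS20 site (from 43216123), 0.77 at ADAMTS9 (from 64856797 of chromosome 3) and 0.75 at ADAM12 (from 126400749 of chromosome 10).

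The combinations differed from each other in a direct test at 6 more. The difference, shARID1A/B.2.3 over shARID1A/B.4.2, was -2.44 at MMP16 (from 88715594 of chromosome 8), -2.26 at ADAM17 (from 9552539 of chromosome 2) and -1.91 at ADAMTS3 (from 72337579 of chromosome 4). It was 1.30 at another MMP16 site (from 88811294), 1.24 at another ADAMTS3 site (from 72319484) and 1.13 at ADAM29 (from 175109930 of chromosome 4). These sites were selected for the size of these differences, so the sizes are likely to be overstated. The part of hairpin strength or of other targets of a hairpin was not tested.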

How the results depend on the processing

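Of 72 named sites and gene sums, 49 kept their side of the threshold under every alternative, and no called item reversed. Of these 49, 7 start sites that were not called changed sign under at least 1 alternative. The other 23 were rises or start sites, apart from a fall and a difference between combinations at ADAM29 and an ADAMTS9 fall. The MMP16 rise, the TIMP2 and ADAM32 rises and those of ADAMTS20 and ADAMTS4 were not called in the DESeq2 test, and 13 called items were not called with promoter scaling. Sites under about 1 CPM are limited by depth, and counting error and the 3 libraries of a group limit the rest. Counts that moved by over 1.5 times follow, with the cause not tested beyond the construction of each setting.

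Scaling on promoter sites gave, for sites, combined silencing 223 lower and 5 higher, ARID1A silencing 132 lower and 1 higher, ARID1B silencing 93 lower and 7 higher, shARID1A.2 100 lower, shARID1A.4 115 lower and 8 higher, shARID1B.2 31 lower, shARID1B.3 145 lower and 14 higher, shARID1A/B.2.3 5 higher, shARID1A/B.4.2 209 lower and 9 higher, combined against single silencing 4 higher, shARID1A/B.2.3 against shARID1A/B.4.2 35 lower and 35 higher, and for genes, combined silencing 35 lower and 2 higher, ARID1A silencing 2 higher. Scaling by total counts only gave, for sites, shARID1A.2 13 higher, shARID1A/B.2.3 44 higher, combined against single silencing 13 higher, shARID1A/B.2.3 against shARID1A/B.4.2 27 higher, and for genes, ARID1A silencing 9 lower, ARID1B silencing 6 lower and 5 higher. Dropping the low-count filter gave, for sites, shARID1A.2 9 higher. The DESeq2 test gave, for sites, shARID1A/B.2.3 15 higher, combined against single silencing 5 higher, shARID1A/B.2.3 against shARID1A/B.4.2 8 higher. A threshold of FDR under 0.05 gave, for sites, combined silencing 49 higher, ARID1A silencing 27 higher, ARID1B silencing 34 higher, shARID1A.2 17 higher, shARID1A.4 76 lower and 54 higher, shARID1B.2 42 lower and 28 higher, shARID1B.3 51 higher, shARID1A/B.2.3 59 higher, shARID1A/B.4.2 53 higher, ARID1A against ARID1B silencing 27 higher, combined against single silencing 31 higher, shARID1A/B.2.3 against shARID1A/B.4.2 33 higher, shARID1B.3 against shARID1B.2 96 lower and 43 higher, and for genes, ARID1B silencing 5 higher. A required log2 change of at least 1 gave, for sites, combined silencing 57 lower and 5 higher, ARID1A silencing 16 lower and 0 higher, ARID1B silencing 13 lower and 1 higher, shARID1A.2 10 lower and 0 higher, shARID1A.4 22 lower and 3 higher, shARID1B.2 6 lower and 4 higher, shARID1B.3 32 lower and 7 higher, shARID1A/B.2.3 76 lower and 6 higher, shARID1A/B.4.2 47 lower and 5 higher, ARID1A against ARID1B silencing 4 lower and 0 higher, combined against single silencing 4 lower and 0 higher, shARID1A/B.2.3 against shARID1A/B.4.2 21 lower and 5 higher, shARID1B.3 against shARID1B.2 23 lower and 6 higher, and for genes, combined silencing 1 lower and 0 higher, ARID1A silencing 0 lower and 0 higher, ARID1B silencing 1 lower and 0 higher. Keeping sites within 100 kb of the TSS gave, for sites, ARID1B silencing 32 lower and 8 higher, shARID1A.4 18 higher, shARID1B.2 12 lower, shARID1B.3 57 lower, shARID1A/B.2.3 18 higher, ARID1A against ARID1B silencing 5 higher, shARID1A/B.2.3 against shARID1A/B.4.2 8 higher, shARID1B.3 against shARID1B.2 36 lower and 15 higher.

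Leaving out each library in turn gave, for sites, combined silencing 115 to 131 lower and 19 to 37 higher, ARID1A silencing 50 to 69 lower and 9 to 23 higher, ARID1B silencing 36 to 50 lower and 10 to 16 higher, shARID1A.2 35 to 47 lower and 1 to 10 higher, shARID1A.4 39 to 48 lower and 17 to 28 higher, shARID1B.2 12 to 21 lower and 8 to 9 higher, shARID1B.3 58 to 75 lower and 19 to 26 higher, shARID1A/B.2.3 119 to 141 lower and 14 to 28 higher, shARID1A/B.4.2 72 to 88 lower and 27 to 36 higher, ARID1A against ARID1B silencing 30 to 43 lower and 11 to 18 higher, combined against single silencing 77 to 96 lower and 4 to 13 higher, shARID1A/B.2.3 against shARID1A/B.4.2 46 to 62 lower and 4 to 12 higher, shARID1B.3 against shARID1B.2 48 to 55 lower and 13 to 26 higher, and for genes, combined silencing 17 to 21 lower and 5 to 8 higher, ARID1A silencing 13 to 17 lower and 2 to 5 higher, ARID1B silencing 7 to 13 lower and 1 to 4 higher. Counts of higher sites moved by over 1.5 times without any one of the 3 Control, the 3 shARID1A.2 or the 3 shARID1A/B.4.2 libraries, libraries 1 and 2 of shARID1A/B.2.3, library 1 of shARID1A.4, library 2 of shARID1B.3 or library 3 of shARID1B.2. Counts of lower sites did so without library 2 or 3 of shARID1A.2, 1 or 3 of shARID1B.2 or 1 of shARID1B.3, and those of lower genes after ARID1B silencing without any one Control library.

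The replicate numbers were shared between groups. Of 63 same-numbered pairs, 4 had correlated deviations over 0.1 (range -0.16 to 0.305), and 12 of 21 libraries correlated best with their own number. The median correlation was 0.00469 for same-numbered pairs and -0.0035 for the others. Whether the numbers pair the libraries is not settled by these values. With the replicate number as a block, combined silencing gave 143 lower and 32 higher member sites, and shARID1A.2 gave 8 higher in place of 5, the only count that moved by over 1.5 times.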
